A study of Mus musculus with 6 samples.

Results

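Heavy chain clonotypes with a long CDR3 were examined in B cells regenerated from embryonic stem cells and in B cells of an unmanipulated mouse. Members were chosen by the length of the CDR3 alone, 18 or more amino acids with no stop codon and no frame shift, and made up 985 of the 14575 heavy chain clonotypes of both libraries. The iB-μMT mouse held 372 of them among 7741 productive clonotypes and the B6 mouse 613 among 6631. The remaining 7369 and 6018 productive clonotypes of the same libraries are called the other clonotypes.

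The iB-μMT mouse was a μMT mouse, whose disrupted μ heavy chain gene blocks its own B cell development, irradiated with 5 Gy at 8 to 10 weeks of age. It received hematopoietic progenitors made in vitro from a GFP-transgenic C57BL/6 embryonic stem cell line (*iR9X2*-ESC) that carries an inducible *Runx1*-*Hoxa9*-*Lhx2* cassette in *Rosa26*, and it was given doxycycline in the drinking water. Its spleen was taken 4 weeks after transplantation, and the control was the spleen of 1 C57BL/6 (B6) mouse that received no transplant and whose age was not given in the sources used here. From each spleen 100000 naïve FO B cells (by a gate that included high CD23 and IgD, and that named no GFP marker) were sorted, and RNA was amplified by 5' RACE. One library was made per mouse, so differences between the mice could not be checked in replicates: every interval and p-value covers the counting of clonotypes only and compares these libraries, not the conditions. By constant gene, 366 of 372 and 607 of 613 long clonotypes were assigned to IGHM and none to a switched constant gene. Of other clonotypes, 98.1% and 98.6% were assigned to IGHM. The constant region primers were not given in the sources used here, so this assignment cannot serve as a check on the sort. Reads per library totalled 909806 (iB-μMT) and 1383617 (B6), and paired values below follow this order unless stated.

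The heavy chain CDR3 is the loop at the centre of the antigen binding site, running from the conserved cysteine at the end of the V segment to the tryptophan of the J segment. It is built by joining a V, a D and a J segment while nucleotides are lost from their ends and others are added at both junctions, by terminal deoxynucleotidyl transferase (N bases) or by templated opening of hairpin ends (P bases). The D segment can be read in any of 3 frames. Its length therefore is the sum of 5 parts, namely bases of V, inserted bases between V and D, bases of D, inserted bases between D and J, and bases of J.

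The long clonotypes with the most reads show how these parts add up. Nucleotide sequences are given 5' to 3' with the bases that MiXCR assigned to D in capitals. These can include flanking bases labelled as P bases, so they can outnumber the bases of the germline segment. Those of the iB-μMT mouse carried 540, 538 and 513 reads, and all used IGHD2-4, in the frame rich in tyrosine and aspartate.
iB-μMT IGHV2-2 IGHD2-4 IGHJ4: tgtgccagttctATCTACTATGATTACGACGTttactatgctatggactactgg
iB-μMT IGHV1-74 IGHD2-4 IGHJ4: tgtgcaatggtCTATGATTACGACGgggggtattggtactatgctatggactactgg
iB-μMT IGHV2-2 IGHD2-4 IGHJ1: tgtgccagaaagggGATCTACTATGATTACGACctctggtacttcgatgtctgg
The first had 20 bases assigned to D, where the germline segment has 17. It had 4 inserted bases between V and D, and none between D and J. The second had 14 bases assigned to D and 3 and 11 inserted bases.

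In the B6 mouse the leading long clonotypes had 994, 832 and 646 reads, and all used IGHD1-1.
B6 IGHV1-15 IGHD1-1 IGHJ1: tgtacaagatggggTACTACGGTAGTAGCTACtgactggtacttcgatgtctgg
B6 IGHV1-15 IGHD1-1 IGHJ3: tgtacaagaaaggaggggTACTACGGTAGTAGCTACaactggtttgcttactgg
B6 IGHV1-64 IGHD1-1 IGHJ1: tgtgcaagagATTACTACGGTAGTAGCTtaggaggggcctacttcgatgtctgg
Each kept 18 bases of D. The capitals differ little between these clonotypes, and the inserted bases next to them, 5 and 2, 9 and 2, and 1 and 11 in number, differ.

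The longest CDR3 of the iB-μMT mouse had 23 amino acids (84 reads), with 17 bases assigned to IGHD2-3 and 9 and 7 inserted bases. In the B6 mouse 3 clonotypes reached 24 amino acids, and the second by reads (117) is shown. It had 23 bases assigned to IGHD2-4, where the germline segment has 17, and 11 and 8 inserted bases.
iB-μMT IGHV3-6 IGHD2-3 IGHJ4: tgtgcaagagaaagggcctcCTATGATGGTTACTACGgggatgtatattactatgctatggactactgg
B6 IGHV1-85 IGHD2-4 IGHJ4: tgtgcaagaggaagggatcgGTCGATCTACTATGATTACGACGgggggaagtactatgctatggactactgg

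The first 24 amino acid clonotype by reads, with 164 reads and IGHV1-33, stands apart because its CDR3 begins in front of the cysteine.
B6 IGHV1-33 IGHD5-7 IGHJ4: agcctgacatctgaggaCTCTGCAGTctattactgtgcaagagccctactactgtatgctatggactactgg
The letters tgtgc, with which 87.4% and 88.3% of the long CDR3s begin, lie inside this one, and the 9 bases assigned to D lie in front of them. All 3 long IGHV1-33 clonotypes of the B6 mouse have this form and were placed with 0 bases of V. With 4 IGHV8-2 clonotypes that begin with ggt (2 in each mouse) and 2 of the B6 mouse that do not end in tryptophan, 2 and 7 long clonotypes do not run from cysteine to tryptophan. They were kept, since the length rule takes them, and the results were also computed without such CDR3s.

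Long CDR3s were less frequent in the regenerated B cells. Their share of productive clonotypes was 4.81% (4.35 to 5.30) for the regenerated cells, against 9.24% (8.57 to 9.97) for B6, where the ranges are 95% Wilson intervals. The difference was -4.44 percentage points (95% interval -5.28 to -3.59, two-sided p = 1.04e-25 by Fisher's exact test), and the share was 1.92-fold higher in the B6 mouse. At 20 or more amino acids the ratio was 3.63, with 38 clonotypes (0.491%) against 118 (1.78%, Fisher's exact test, p = 6.86e-14). Most long clonotypes lay close to the threshold, 334 (89.8%) and 495 (80.8%) of them having 18 or 19 amino acids. Just outside it, CDR3s of 17 amino acids held 6.21% and 8.16% of productive clonotypes, and just inside it those of 18 amino acids held 3.10% and 5.16%. The median length of all productive CDR3s was 14 amino acids in both mice. Among clonotypes with a stop codon or a frame shift, which the rule leaves out, 0 of 53 (iB-μMT, which allows a share of up to 5.66%) and 14 of 150 (B6) were 18 or more characters long.

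**Figure D1:**
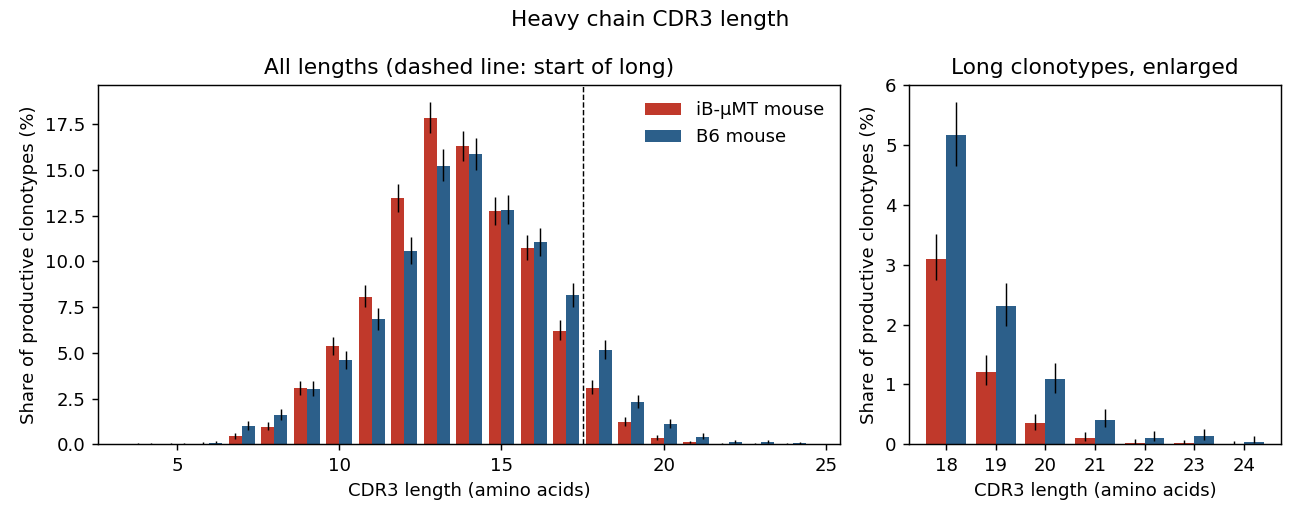
Share of productive heavy chain clonotypes (%) at each CDR3 length in amino acids, for the iB-μMT mouse (red) and the B6 mouse (blue), with 95% Wilson intervals; the right panel enlarges lengths from 18. From 15 amino acids upwards and at 6 to 8 amino acids the B6 bars are the higher ones, and at 18 amino acids they stand at 5.16% against 3.10%.

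The lower share of long CDR3s was found within V families and J genes alike. It was lower in the iB-μMT mouse within 11 of 11 V families, 4 of 4 J genes, 9 of 13 D genes and 30 of 37 pairs of a J and a D gene with enough clonotypes in both mice. Genes and pairs with 0 long clonotypes in both mice, such as IGHD5-1, are not counted as lower. Within IGHV1, the largest family, the long share was 4.61% against 8.74%, and within IGHV5 4.93% against 10.9%. With IGHJ1 and IGHJ4, the segments that bring the most bases into CDR3, 8.70% and 9.29% of regenerated clonotypes were long, against 16.5% and 15.4% of B6 clonotypes. With IGHJ2 and IGHJ3 these shares were 1.40% and 1.48%, against 3.93% and 4.16%. Of IGHD1-1 clonotypes, 15.1% (13.41 to 17.04) and 18.9% (17.2 to 20.7) were long. IGHD1-1 was assigned to 19.3% and 30.1% of productive clonotypes. The mice differed less in the IGHD1-1 pairs with the most long clonotypes, where the intervals overlapped. With IGHJ4, 26.4% (22.5 to 30.6) and 29.7% (25.9 to 33.8) of IGHD1-1 clonotypes were long, and with IGHJ1 24.7% and 27.7%. With IGHJ2 and IGHJ3 these shares were 4.38% and 4.55%, against 9.47% and 8.50%.

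Below 10 inserted bases, clonotypes in the same range of inserted bases differed less between the mice. With 0 inserted bases 2 of 588 and 0 of 156 clonotypes were long. With 1 to 3 inserted bases 1.87% and 2.01% were long, and with 4 to 6 inserted bases 4.12% and 4.86%. With 7 to 9 inserted bases the shares were 12.8% and 12.1%. With 10 or more, 23.0% (19.2 to 27.2) and 29.3% (26.7 to 32.1) were long. In all 5 groups the intervals of the mice overlapped, at 10 or more only from 26.7 to 27.2. Overlap does not show that the shares were equal, and the group of 10 or more has no upper limit. The groups themselves were filled unequally, 418 regenerated and 1085 B6 clonotypes having 10 or more inserted bases. Since inserted bases are a part of the length, these shares are a description and were not tested.

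**Figure D2:**
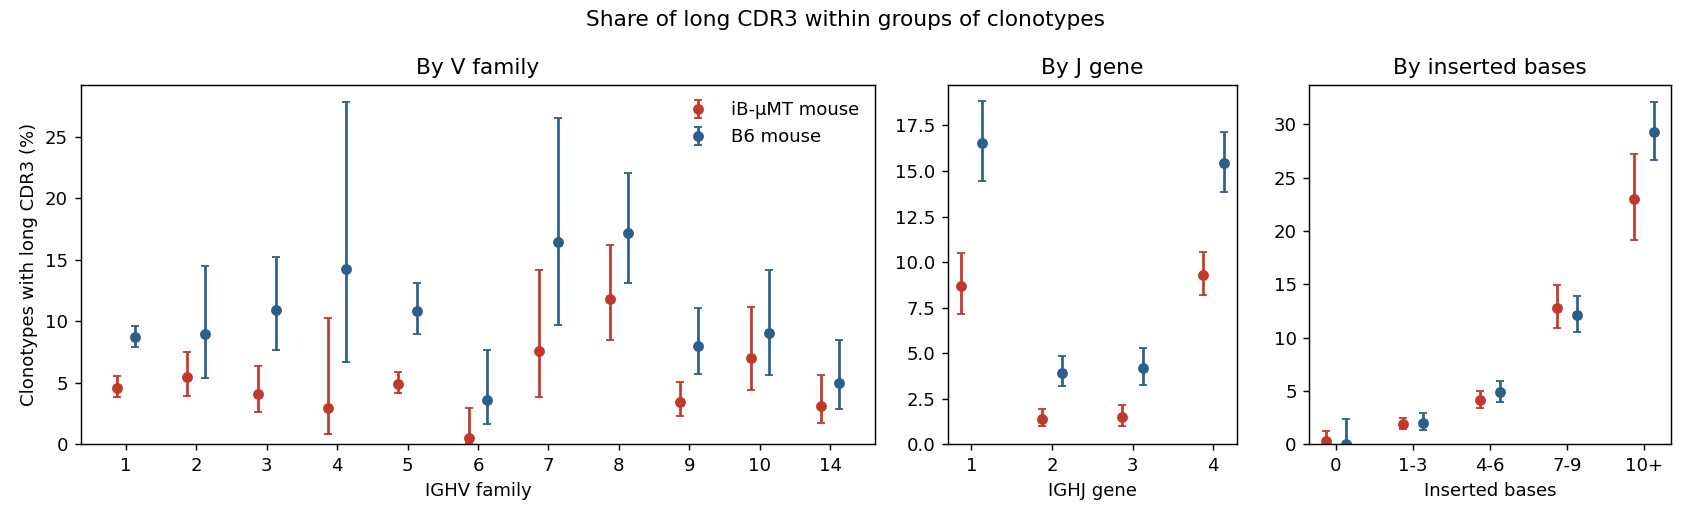
Share of clonotypes with a CDR3 of 18 or more amino acids (%) within each IGHV family, each IGHJ gene and each range of inserted bases, with 95% Wilson intervals, for the iB-μMT mouse (red) and the B6 mouse (blue). The red points lie below the blue points in all V families and J genes shown, and close to them at 1 to 9 inserted bases.

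The parts of the CDR3 were next compared over clonotypes with a D hit. Between long and other clonotypes these differences follow in sum from the rule, so they are given without a test. The D segment contributed most: long clonotypes kept a mean of 15.9 ± 4.31 bases of D (SD, n = 372) and 15.9 ± 4.34 (n = 612), against 10.2 and 10.4 in other clonotypes. Bases of J numbered 22.3 and 20.6 in long against 17.8 and 16.6 in other clonotypes. Inserted bases numbered 7.58 ± 3.65 and 10.3 ± 4.999 in long, and 4.13 and 5.91 in other clonotypes. After D, the larger difference was in J for the iB-μMT mouse (4.53 bases, against 3.45 inserted bases) and in inserted bases for the B6 mouse (4.38, against 4.00 bases of J). Bases of V differed least, 9.66 and 9.46 against 8.90 and 8.67. Bases that MiXCR labelled as P bases are counted here with the D or J segment, and 42.5% and 33.5% of long clonotypes had some at the J end. At the J end they averaged 1.77 and 1.16 bases in long clonotypes, and 0.833 and 0.723 in other clonotypes. The order of J and inserted bases in the iB-μMT mouse depends on this counting.

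Between the mice, no difference in D bases of long clonotypes was detectable, while the junctions and J differed. The D segment differed by 0.03 bases (95% interval -0.53 to 0.58). Long clonotypes of the iB-μMT mouse had 2.71 fewer inserted bases (iB minus B6 -2.71, 95% interval -3.26 to -2.17), of which 1.39 lay between V and D (-1.39, -1.81 to -0.97) and 1.32 between D and J (-1.32, -1.73 to -0.91). They had 1.67 more bases of J (1.12 to 2.22). With P-labelled bases counted as inserted, the difference in inserted bases was -2.12. Fewer inserted bases were not particular to long clonotypes, since other clonotypes differed by -1.79 (-1.91 to -1.67). Nor were more bases of J, which differed by 1.15 (0.97 to 1.32) among other clonotypes. Bases of J include P-labelled bases in both comparisons.

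The extremes of insertion were also counted. Of long clonotypes, 25.8% (21.6 to 30.5) and 52.0% (48.0 to 55.9) had 10 or more inserted bases, against 5.06% and 14.7% of other clonotypes. Long clonotypes with D joined directly to J were 41.1% (36.2 to 46.2) and 27.0% (23.6 to 30.6), against 54.9% and 29.1% of other clonotypes, so this joining was not particular to long CDR3s. A long CDR3 with no inserted base at either junction was seen in 2 of 372 clonotypes and in 0 of 612, which allows a share of up to 0.490%. These counts do not separate the mice, and among other clonotypes the shares were 9.20% and 2.999%.

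**Figure D3:**
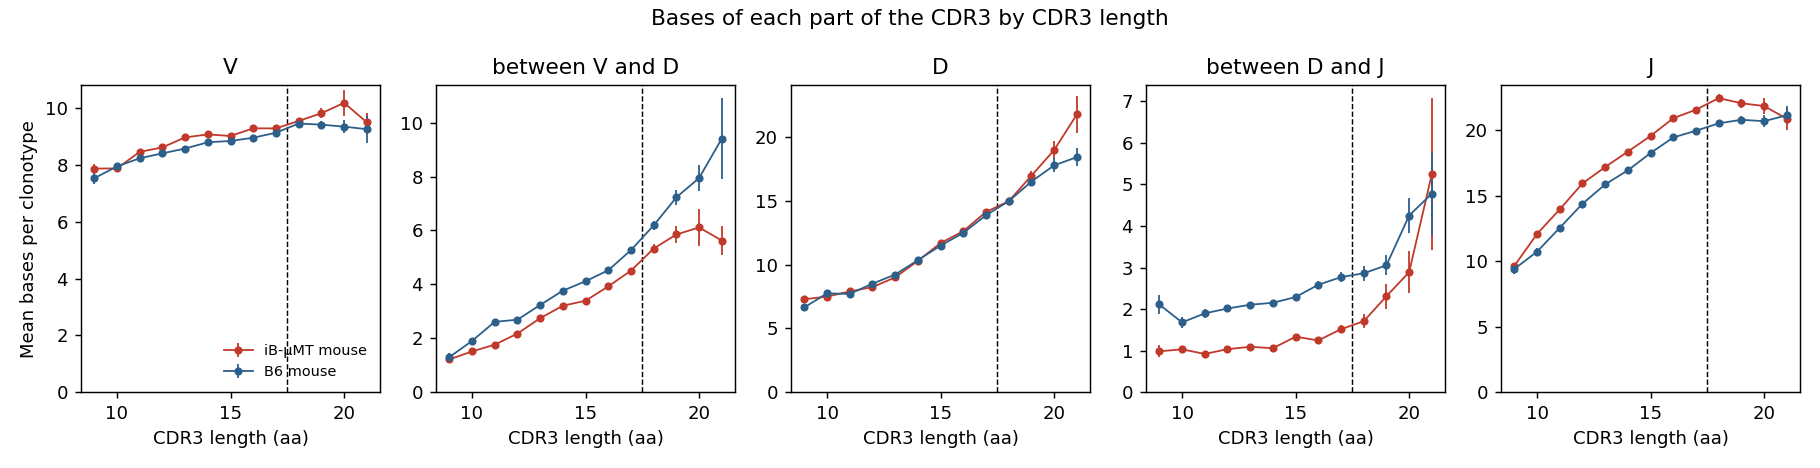
Mean number of bases of V, between V and D, of D, between D and J and of J at each CDR3 length in amino acids, with standard errors over clonotypes, for the iB-μMT mouse (red) and the B6 mouse (blue). The dashed line marks the start of the long clonotypes. The curves for D cross several times up to 18 amino acids, with the widest gap there at 9 amino acids (7.28 against 6.64 bases), both junctions lie lower in the iB-μMT mouse up to 20 amino acids, and J lies higher from 9 to 20 amino acids.

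The D gene of long clonotypes was mostly IGHD1-1, whose 23 bases (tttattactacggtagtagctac, read back from the alignments) are more than the 17 of the IGHD2 genes and the 11 of IGHD4-1. RefSeq places IGHD1-1 at 113482170 to 113482192 of chromosome 12 in GRCm38.p6, IGHD2-4 at 113470694 to 113470710, and IGHD4-1, the D segment nearest to J, at 113430528 to 113430538. IGHD1-1 made up 60.8% and 61.5% of long clonotypes, against 17.2% and 26.9% of other clonotypes. IGHD4-1 made up 1.61% and 0.653% of long, against 17.1% and 9.29% of other clonotypes. The IGHD2 genes lay between these. IGHD2-4 was at 16.1% and 12.7% of long against 11.8% and 12.9% of other, and IGHD2-3 at 6.99% and 6.36% against 14.4% and 10.3%. IGHD2-5, IGHD2-7 and IGHD2-8 made up 3.23% to 5.87% of long clonotypes. Some D could be assigned to all but 1 long clonotype of the B6 mouse, whereas 13.6% of other clonotypes in both mice had no D hit.

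The shorter IGHD2 segments were kept whole more often than the longer IGHD1-1, in long and in other clonotypes. Of the long clonotypes with an IGHD2 gene, 30.5% (40 of 131) and 22.3% (47 of 211) retained the full segment, against 3.91% and 3.75% of other IGHD2 clonotypes. IGHD1-1 was retained in full in 6 of 226 and 17 of 377 long clonotypes (2.65% and 4.51%), against 3 of 1267 and 3 of 1620 other clonotypes (0.237% and 0.185%). The D genes of long clonotypes did not pass the test between the mice: 0 of 6 D genes with 20 or more long clonotypes differed (0.0% called, Fisher's exact test with Benjamini-Hochberg adjustment over the 6), and 0 of 6 had an unadjusted p under 0.05. IGHD1-1 differed by -0.75 percentage points, its intervals being 55.7 to 65.6% and 57.6 to 65.3%.

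IGHD1-1 was read mainly in the frame that encodes YYYGSSY. That frame held 79.2% (73.4 to 84.0) and 78.4% (73.8 to 82.3) of the long IGHD1-1 clonotypes whose frame could be read, and 77.8% and 67.2% of the other IGHD1-1 clonotypes. The frame with stop codons within the segment (LLLR followed by stops) was found in 1 of 221 and 2 of 365 long clonotypes, against 6.16% and 6.31% of other clonotypes. In the IGHD2 genes the tyrosine frame held 84.6% and 87.4% of long clonotypes, against 81.3% and 77.5% of other clonotypes.

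Of the 4 J genes, IGHJ4 and IGHJ1 were more frequent and IGHJ2 and IGHJ3 less frequent among long clonotypes. They lie at 113428514 to 113428567 (IGHJ4), 113429085 to 113429132 (IGHJ3), 113429468 to 113429515 (IGHJ2) and 113429781 to 113429833 (IGHJ1) of chromosome 12. IGHJ4, which encodes the ending AMDYW, made up 57.5% and 45.8% of long against 28.4% and 25.6% of other clonotypes. IGHJ1 made up 25.8% and 29.9% against 13.7% and 15.4%. IGHJ2 made up 9.68% and 14.03% of long against 34.4% and 34.9% of other clonotypes, and IGHJ3 was at 6.99% and 10.3% of long against 23.6% and 24.1%. The pair IGHD1-1 with IGHJ4 alone made up 32.5% and 24.96% of long clonotypes, against 4.59% and 6.02% of other clonotypes.

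Among long clonotypes, 1 of 4 J genes differed between the mice (25.0% called). IGHJ4 was 11.7 percentage points higher in the iB-μMT mouse (Fisher's exact test with Benjamini-Hochberg adjustment over the 4, adjusted p = 0.00156). IGHJ2 had an unadjusted p of 0.0463 and an adjusted p of 0.0926 by Fisher's exact test, at 9.68% against 14.03%. Counted from 19 amino acids, the IGHJ4 difference was 7.88 percentage points with an adjusted p of 0.327.

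**Figure D4:**
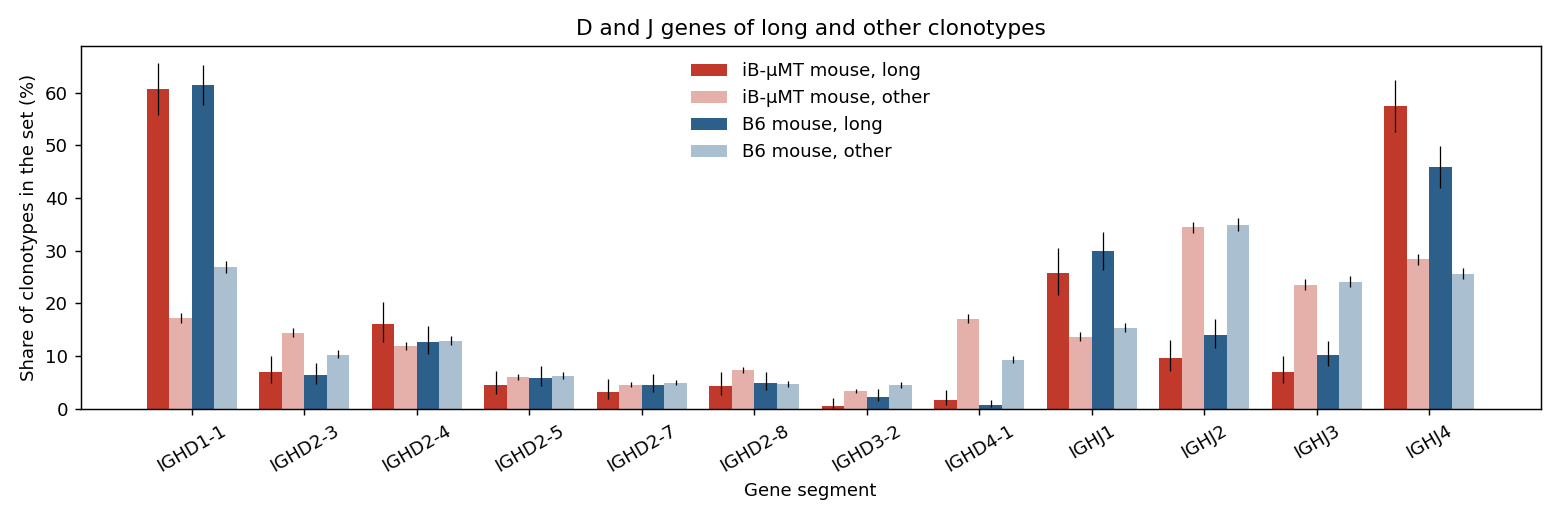
Share (%) of long and of other clonotypes that used each D gene (8 genes shown) and each J gene, with 95% Wilson intervals; dark bars are long clonotypes, light bars other clonotypes, red the iB-μMT mouse and blue the B6 mouse. IGHD1-1 stands at 60.8% and 61.5% of long clonotypes, and IGHJ4 at 57.5% and 45.8%.

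A second D segment was looked for in the inserted bases, as an exact match of 8 or more bases to another D gene. Such a match was found in 4 of 372 long clonotypes (1.08%, 0.419 to 2.73) of the iB-μMT library and 1 of 612 (0.163%, 0.0288 to 0.920), against 1 of 6367 and 1 of 5201 other clonotypes. Whether these matches are second D segments or arose by chance was not tested. Long clonotypes have more inserted bases to search. Among clonotypes with 8 or more bases at one junction the counts were 4 of 111 and 1 of 300 long, and 1 of 346 and 1 of 611 other clonotypes. The reverse complement of the D genes, searched in the same way, matched in 0 of 372 and 0 of 612, which allows shares of up to 0.806% and 0.490%. The 5 clonotypes are shown with the second match in capitals.
iB-μMT IGHV5-16 IGHD2-4 IGHJ2: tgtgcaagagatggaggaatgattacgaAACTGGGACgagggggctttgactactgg
iB-μMT IGHV2-5 IGHD2-4 IGHJ4: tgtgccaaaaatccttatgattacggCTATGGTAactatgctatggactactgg
iB-μMT IGHV5-4 IGHD1-1 IGHJ3: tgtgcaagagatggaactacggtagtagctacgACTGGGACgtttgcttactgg
iB-μMT IGHV5-6 IGHD1-1 IGHJ4: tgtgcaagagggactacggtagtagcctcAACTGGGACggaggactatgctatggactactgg
B6 IGHV1-39 IGHD1-1 IGHJ3: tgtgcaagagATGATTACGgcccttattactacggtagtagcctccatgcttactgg
In 3 of the 4 iB-μMT clonotypes the match was to IGHD4-1 and lay between D and J. The clonotype of the B6 mouse matched IGHD2-4 between V and D and had 1 read. The matches were 8 or 9 bases long, and at 10 or more bases there was none. With P-labelled bases searched as well, a match was found in 5.38% (3.51 to 8.16) and 2.45% (1.49 to 4.00) of long clonotypes, against 2.62% (2.26 to 3.04) and 1.90% (1.57 to 2.31) of other clonotypes, and the intervals of the B6 mouse overlapped.

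V genes were compared between long and other clonotypes by Fisher's exact test, over genes with 20 or more clonotypes. Bases of V count toward the length that chose the members, so these tests are not independent of the rule. For iB-μMT 2 of 71 genes were called (2.82%) and for B6 3 of 64 (4.69%), all more frequent among long clonotypes. At an unadjusted p under 0.05 there were 6 and 10. IGHV1-71 was called in both. By Fisher's exact test, it made up 1.61% of long against 0.204% of other clonotypes in the iB-μMT mouse (adjusted p = 0.0123) and 2.77% against 0.548% in the B6 mouse (adjusted p = 7.25e-05). Of all IGHV1-71 clonotypes, 6 of 21 and 17 of 50 were long. Within its CDR3, IGHV1-71 brought a mean of 15.95 and 15.56 bases of V, against 8.96 and 8.75 over all productive clonotypes. After the V bases, the rest of its CDR3 had 32.2 and 34.0 bases, against 31.8 and 33.1.

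The other calls were made in 1 library each. IGHV8-12 made up, with Fisher's exact test adjusted as above, 5.38% of long against 1.38% of other clonotypes in the iB-μMT mouse (adjusted p = 8.51e-05), and 2.77% against 1.58% in the B6 mouse (adjusted p = 0.291). IGHV8-8 made up 4.40% against 1.81% in the B6 mouse (adjusted p of the exact test 0.00258), and 2.69% against 1.74% in the iB-μMT mouse (adjusted p = 0.956). IGHV5-6 made up 4.40% against 1.69% in the B6 mouse (adjusted p of the exact test 0.00128), and 8.06% against 6.85% in the iB-μMT mouse (adjusted p = 1.0). IGHV8-12 and IGHV8-8 brought 11.1 to 11.5 bases of V, whereas IGHV5-6 brought 8.84 and 8.74, near the mean over all genes, and in the B6 mouse 36.3 bases after V. Genes with the largest differences that did not pass the test included IGHV2-2 (6.45% of long against 4.08% of other) and IGHV5-9-1 (3.76% against 1.94%) on the higher side in the iB-μMT mouse. On the lower side were IGHV6-3 (0 of 372 long, against 1.78% of other), IGHV5-4 (11.6% against 13.01%) and IGHV9-3 (4.57% against 5.84%) in the iB-μMT mouse. In the B6 mouse these were IGHV5-17 (1.79% against 3.46%), IGHV1-80 (1.47% against 2.87%) and IGHV1-9 (0.489% against 1.78%).

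By family, IGHV8 was more frequent and IGHV6 less frequent among long clonotypes of both mice. No other family was called, so that 2 of 13 were called for iB-μMT (15.4%) and 2 of 11 for B6 (18.2%). IGHV8 made up 8.60% against 3.24% (Fisher's exact test, adjusted p = 2.46e-05) and 7.67% against 3.77% (adjusted p = 0.000274). IGHV6 made up 0.269% against 2.55% (Fisher's exact test, adjusted p = 0.0103) and 0.979% against 2.64% (adjusted p = 0.0498). In the B6 mouse the IGHV6 call was lost under 5 of 9 alternatives. Counted from 19 amino acids, the IGHV6 call of the iB-μMT mouse (adjusted p = 1.0 by Fisher's exact test) and the IGHV8 call of the B6 mouse (adjusted p = 0.534) were lost too. IGHV8 had 11.4 and 11.3 bases of V in CDR3 and IGHV6 7.29 and 6.97, against 8.96 and 8.75 over all families. V bases are themselves part of the length that chose the members, and how much of the V calls goes with them was not tested.

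The remaining families did not pass the test. IGHV7, with 11.7 and 11.2 bases of V, made up 2.15% and 1.96% of long against 1.33% and 1.01% of other clonotypes. IGHV14 was at 2.69% and 1.96% of long against 4.25% and 3.82%, IGHV9 at 5.91% and 5.22% against 8.47% and 6.10%, IGHV3 at 4.84% and 4.73% against 5.70% and 3.94%, and IGHV4 at 0.538% and 0.979% against 0.882% and 0.598%. IGHV1 held 28.5% and 56.3% of long clonotypes against 29.8% and 59.9% of other, and IGHV5 32.5% and 15.01% against 31.7% and 12.5%. IGHV2 was at 9.41% and 2.28% of long against 8.25% and 2.36%, and IGHV10 at 4.30% and 2.61% against 2.86% and 2.68%. IGHV13 and IGHV15, tested in the iB-μMT mouse, had 1 and 0 long clonotypes. The long-to-other odds ratio differed between the mice in 0 of 11 families (0.0% called, z test on log odds ratios with Benjamini-Hochberg adjustment), and 0 of 11 had an unadjusted p under 0.05, the smallest being 0.227.

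The amino acids of the loop, without its first and last residue, shifted alike in both mice. By the interval of the difference in mean share, 14 of 20 amino acids differed between long and other clonotypes in each mouse (70.0% called in both). Of these, 6 were higher in both (tyrosine, serine, valine, methionine, isoleucine and proline) and 6 lower in both (alanine, phenylalanine, aspartate, arginine, asparagine and leucine). Tyrosine, the residue most used in antibody binding sites, rose from 22.4% to 27.1% of the loop in the iB-μMT mouse (difference 4.69 percentage points, 95% interval 3.75 to 5.62) and from 19.6% to 23.4% in the B6 mouse (3.85, 3.15 to 4.54). Serine rose from 4.87% to 8.08% (3.21, 2.53 to 3.89) and from 5.93% to 8.14% (2.21, 1.64 to 2.77). Alanine was lower by 2.70 and 2.77 percentage points (-2.70, -3.22 to -2.19, and -2.77, -3.20 to -2.35), and arginine, a positively charged residue, by 1.62 and 1.79 (-1.62, -2.06 to -1.19, and -1.79, -2.18 to -1.39). Aspartate differed by -2.08 (-2.67 to -1.49) and -1.13 (-1.62 to -0.63).

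Since residues encoded at the ends of V and J are spread over a longer loop, numbers per loop are given as well. Long loops had a mean of 4.47 and 3.93 tyrosines against 2.60 and 2.29, and 1.83 and 1.78 alanines against 1.53 and 1.51. Arginines numbered 1.30 and 1.38 in long against 1.06 and 1.13 in other loops, so that their share fell while their number did not. Glycine did not pass, with differences of -0.54 (-1.09 to 0.02) and -0.32 (-0.83 to 0.19), nor did threonine, with 0.36 (-0.274 to 0.998) and -0.32 (-0.77 to 0.14). Tryptophan was lower in the iB-μMT mouse (-1.15, -1.50 to -0.80) and did not pass in the B6 mouse (-0.19, -0.46 to 0.09). Cysteine, which can form an extra disulphide bond in a loop, was found in 2.42% and 3.43% of long loops against 1.52% and 4.07% of other loops, and no long loop held 2 of them. The B6 count includes the 3 long IGHV1-33 clonotypes, whose CDR3 begins in front of the V cysteine. By mean share, cysteine differed by 0.006 (-0.090 to 0.102) in the iB-μMT mouse and by -0.19 (-0.28 to -0.09) in the B6 mouse. Runs of 3 or more tyrosines were present in 36.0% and 27.2% of long loops, against 7.45% and 4.42% of other loops.

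The amino acids were also compared within the D and J genes. Within IGHD1-1 clonotypes, long loops had 1.92 percentage points more tyrosine in the iB-μMT mouse (0.57 to 3.26) and 2.80 more in the B6 mouse (1.80 to 3.80). For serine the difference within IGHD1-1 clonotypes was -1.08 (-1.95 to -0.21) and 0.63 (-0.10 to 1.37), so the rise seen over all clonotypes was turned in the iB-μMT mouse. Within IGHJ4 clonotypes both residues were higher in long loops, tyrosine by 2.86 (1.67 to 4.05) and 4.28 (3.25 to 5.30) and serine by 3.33 (2.40 to 4.25) and 2.54 (1.72 to 3.37). Within clonotypes with both IGHD1-1 and IGHJ4, tyrosine differed by 1.64 (-0.29 to 3.57) and 4.37 (2.73 to 6.02), and serine by -0.55 (-1.87 to 0.77) and 1.78 (0.55 to 3.02). Methionine, which IGHJ4 encodes, was lower in long loops within IGHJ4 clonotypes (-2.10, -2.33 to -1.87, and -1.99, -2.22 to -1.76), although it was higher over all clonotypes. Between the mice, long loops of the iB-μMT mouse had 3.65 percentage points more tyrosine (2.53 to 4.77) and 1.42 less glycine (-1.42, -2.13 to -0.71), and other loops differed in the same direction, by 2.81 and -1.20.

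**Figure D5:**
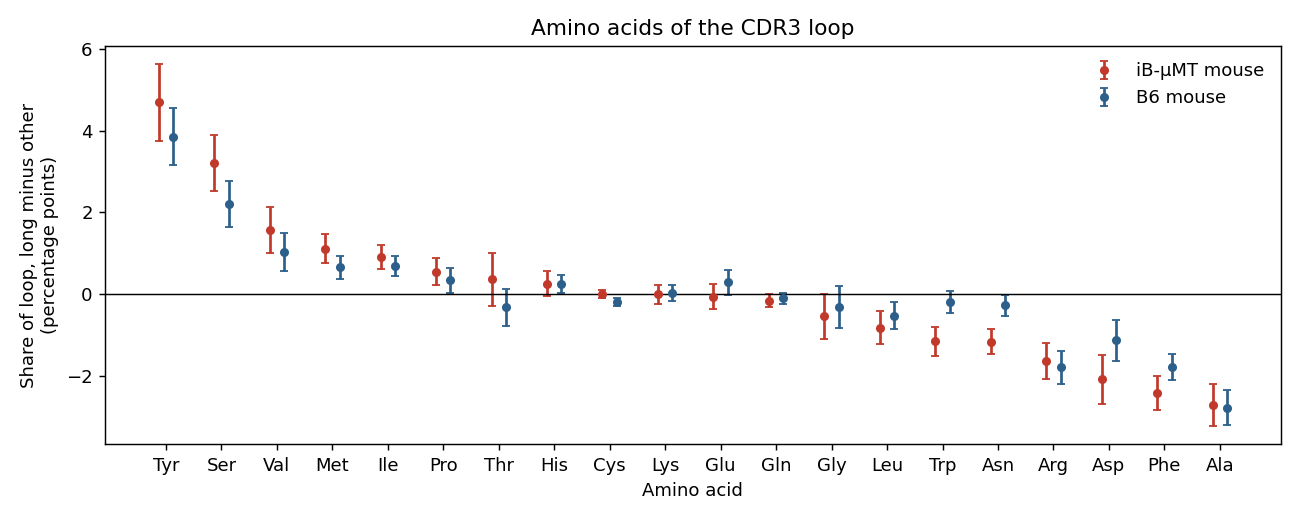
Difference in the mean share of each amino acid in the CDR3 loop, long minus other clonotypes (percentage points), with 95% intervals, for the iB-μMT mouse (red) and the B6 mouse (blue). Tyrosine lies highest, at 4.69 and 3.85, and alanine lowest, at -2.70 and -2.77.

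Long clonotypes carried fewer reads than other clonotypes. In the iB-μMT mouse the long clonotypes had from 1 to 540 reads with a median of 68, and the other clonotypes from 1 to 5930 with a median of 98. In the B6 mouse long clonotypes had from 1 to 994 reads with a median of 138, and other clonotypes from 1 to 1558 with a median of 191.5. The ranges share their lower end, and the medians were lower for long clonotypes. The highest values were lower too, but a highest value depends on the number of clonotypes, and long clonotypes are far fewer. Mean log2 reads differed by -0.53 (95% interval -0.72 to -0.33) and by -0.26 (-0.43 to -0.08). Long clonotypes therefore held 3.59% and 7.60% of the productive reads, which is 0.747 and 0.822 of their share of clonotypes. Among the 1000 clonotypes with the most reads, 22 and 56 were long (2.20% and 5.60%).

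The decline in reads was gradual along the length rather than a step at 18 amino acids. In the iB-μMT mouse the median was 124.5 reads at 9 amino acids, 94.0 at 14, 76.0 at 17, 75.5 at 18 and 55.5 at 19. In the B6 mouse it was 211 at 9, 188 at 14, 165 at 17, 156.5 at 18 and 136 at 19. Reads are PCR products without molecular identifiers, the amplified product grows with the CDR3, and the part of amplification in this decline was not tested. Clonotypes with a single read were 4.30% and 3.75% of long and 3.30% and 3.49% of other clonotypes, and these shares did not pass Fisher's exact test (p = 0.299 and p = 0.729).

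One long clonotype was found in both mice with the same nucleotides, V and J gene. It is shown with the D bases in capitals.
both mice IGHV1-82 IGHD1-1 IGHJ2: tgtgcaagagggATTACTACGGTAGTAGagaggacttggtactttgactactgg
It had 1 read in the iB-μMT mouse and 107 reads in the B6 mouse, and it holds 3 and 11 inserted bases. The match therefore rests on a single read, and with a minimum of 2 reads this clonotype is no longer found in both mice. Among other clonotypes 33 were found in both mice, 0.448% and 0.548%. Against these, the shares of long clonotypes, 0.269% (0.0475 to 1.51) and 0.163% (0.0288 to 0.918), did not pass Fisher's exact test (p = 1.0 and p = 0.365).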

How the data were processed

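Heavy chain libraries of 1 iB-μMT mouse and 1 B6 mouse were analysed, 2 of the 6 libraries of the series. The authors sequenced 5' RACE products with an Illumina MiSeq, and MiXCR (version 3.0.13) gave the clonotypes. The submitters' processing notes name mm10 and bcl2fastq. The deposited tables give, per clonotype, its read count, its fraction of all reads in the library and a quality score (the lowest over CDR3). They also give the CDR3 sequence, gene hits and junction positions. The light chain tables were not used.

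Counts were used without normalization, and each clonotype was counted once. A clonotype was long at 18 or more amino acids without a stop codon or frame shift. The best V, D and J hits were used. Inserted bases were those between the reported V, D and J ends, so a base that MiXCR placed in a segment, P-labelled ones included, is not counted as inserted. Depth was 909806 and 1383617 reads, and 3 reads are 0.00033% and 0.000217% of these. Of the long clonotypes, 18 and 32 had fewer than 3 reads and were kept. The number of clonotypes sets the precision.

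Shares have 95% Wilson intervals, differences of means 95% normal intervals. Fisher's exact test (two-sided) with Benjamini-Hochberg adjustment at 0.05 was used for V genes and families with at least 20 clonotypes and, among long clonotypes, for D genes with at least 20 long clonotypes and for J genes. A z test compared log odds ratios, with 0.5 added to each count. The V test was tested on simulated data. The V genes named were those called in both libraries and the 3 with the largest differences in each direction in each library. The members and lists were chosen with earlier results of these data known. Gene names were matched to RefSeq (104 of 104 V genes) and coordinates are those of GRCm38.p6. Alternatives were a minimum of 2 or 5 reads, merging near-identical clonotypes, 17 or 19 amino acids, read weights, amino acid identity, a unique V hit, at least 8 bases of D, matches of 9 or 10 bases and leaving out clonotypes found in both mice. CDR3s from cysteine to tryptophan and other treatments of P-labelled bases were added after seeing the data. Python 3.11.15, NumPy 2.4.6, SciPy 1.17.1, pandas 2.3.3 and Matplotlib 3.10.9 were used.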

Additional observations from a re-analysis of the deposited data

How the results depend on the processing

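No paired analysis was possible because each group held 1 library, and for the same reason no library could be left out. Of 203 values recomputed under alternatives, 178 kept their direction and side of the threshold, or for counts and shares without a test stayed close to the main value. Another 5 changed sign, all of differences whose test or interval was not passed in either setting: D bases of long clonotypes between the mice (-0.033 at 17 or more amino acids and -0.0087 with CDR3s from cysteine to tryptophan), the single read share of long minus other clonotypes in the B6 mouse (-0.267 percentage points at 17 or more and -0.586 at 19 or more amino acids), and the share found in both mice, long minus other, for iB-μMT (0.033 percentage points at 17 or more amino acids). The long share differed between the mice by -6.38 to -2.38 percentage points over 9 alternatives and inserted bases of long clonotypes by -3.29 to -2.12 over all alternatives run for them. With 1 family called in place of 2, V families of the B6 mouse lost IGHV6 at 5 or more reads, after merging, without clonotypes found in both mice and with CDR3s from cysteine to tryptophan. At 19 or more amino acids 0 of 11 families were called in the B6 mouse by Fisher's exact test (1 at an unadjusted p under 0.05), 1 family in the iB-μMT mouse and 1 V gene in the B6 mouse, and the IGHJ4 difference between the mice was 7.88 percentage points without passing. There are fewer long clonotypes at 19 than at 18 amino acids. At 17 or more amino acids 10 V genes were called in the B6 mouse in place of 3, and the cause was not tested. The share with a second D match was 0.0% in both mice at 10 or more bases, and 5.38% and 2.45% with P-labelled bases searched as well, where other clonotypes had 2.62% and 1.90%. The number of clonotypes limits the precision, and 1 library per group limits every difference between the mice.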
